A study of Mus musculus with 4 samples.

Results

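The 8 genes Nnt, Casp4, Disc1, Wdfy1, Entpd4, Crb1, Cyfip2 and Nlrp12 are reported to differ in allele, copy or expression in strain 129 or in a C57BL/6 mouse. They were found by symbol in the deposited count table and filled 9 of its 32285 rows, since 2 gene identifiers carry the symbol Nnt. RNA was sequenced from 4 libraries of GS cells, cultured spermatogonia made from the testes of wild-type mice aged 10 days: 2 libraries of strain 129 and 2 of strain C57BL/6 (B6). No treatment was given, and the substrain of neither strain is named in the labels. The titles of the B6 libraries also carry the letters F0, those of 129 do not, and their meaning is not given. The labels do not tell whether both libraries of one strain stem from different mice or cultures, and p-values here cover only the variation among these 4 libraries, which may be technical. Each library held 20375086 to 25374801 counted reads. Values are counts of reads per gene, or CPM, the counts divided by library sizes scaled with TMM factors.

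As background, the alleles are of several kinds. C57BL/6J mice lack several internal exons of Nnt, the mitochondrial inner-membrane enzyme that uses the proton gradient to make NADPH. Strain 129 carries a small deletion at the splice acceptor of an exon of Casp4, the receptor caspase for cytosolic lipopolysaccharide (also called caspase-11), so that the exon is skipped, and a short deletion within an exon of Disc1, a scaffold protein of neurons and centrosomes. C57BL/6N mice carry the rd8 frameshift of Crb1, an apical polarity protein of the retina, and a missense allele of Cyfip2, a subunit of the WAVE complex that drives actin branching, while C57BL/6J mice carry a missense allele of Nlrp12, a Nod-like receptor of myeloid cells. Wdfy1, an endosomal protein with a FYVE domain and WD repeats, and Entpd4, a nucleotidase of the Golgi and lysosome, stand on the list for copy or expression differences. A count per gene sums all its annotated exons, so none of these alleles can be read from the table itself. What can be measured is how many reads each gene had in each library.

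None of the 5 genes with enough reads to test passed the test between the strains. The test was edgeR's quasi-likelihood test with Benjamini-Hochberg adjustment over 16005 genes, with an adjusted p of 0.05 as the threshold. Each log2 fold change divides 129 by B6. The background rate was 2.86% of genes called (457 genes), with 1.84% higher and 1.02% lower in 129. At an unadjusted p under 0.05, 2 of the 5 passed, Disc1 and Nlrp12, as did 28.1% of all genes tested. DESeq2 and limma-voom also called 0 of the 5, where they called 15.3% and 1.54% of all genes. The shares over all genes are also the background for the gene lists below. For 4 of the 5 genes the libraries of the strains did not overlap, as was true of 60.1% of all genes tested. The median log2 fold change was -0.44 over the 5 genes and 0.015 over all genes tested. The other 3 genes, Nnt, Entpd4 and Crb1, had too few reads to be tested. With 2 libraries against 2, an exact permutation test of a single gene cannot go below p = 0.333.

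**Figure D1:**
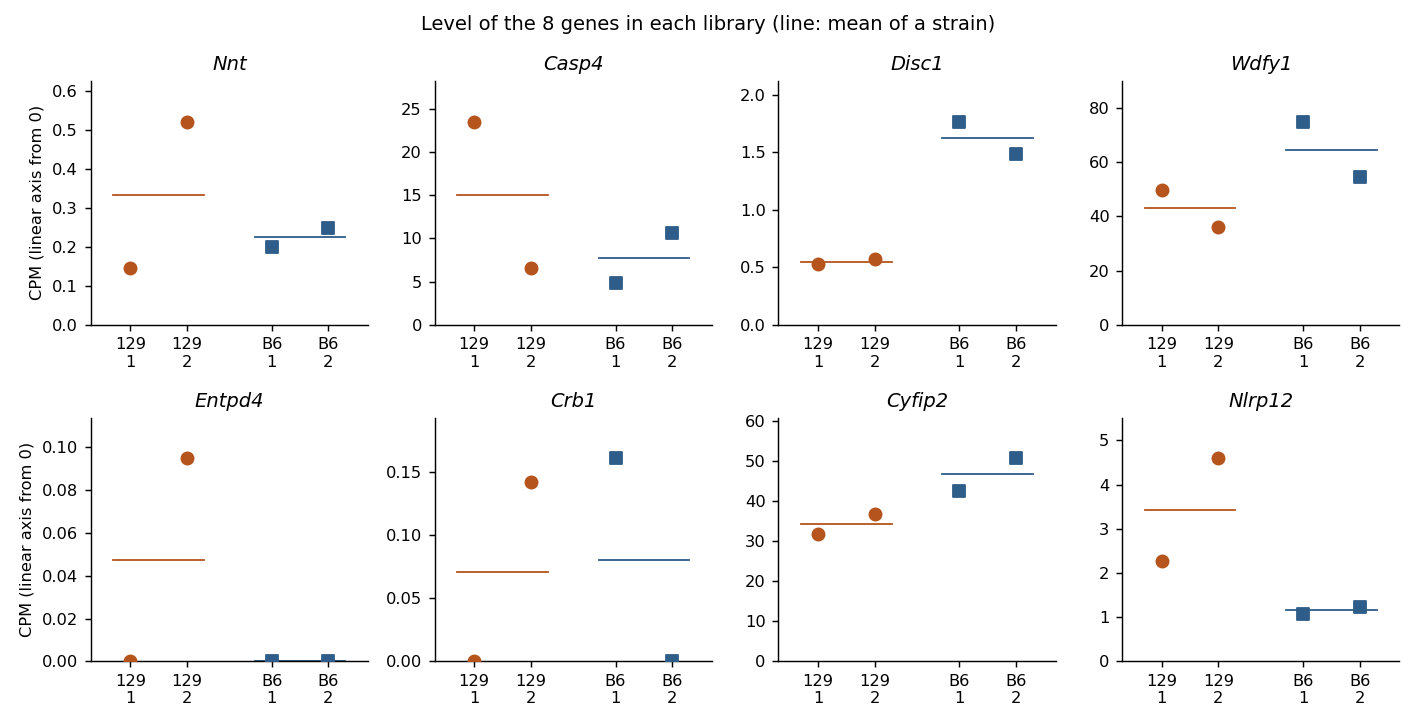
CPM of each of the 8 genes (vertical axis, linear, starting at 0) in 129 libraries 1 and 2 (circles) and B6 libraries 1 and 2 (squares), with a line at the mean of each strain. Disc1, Wdfy1 and Cyfip2 lie lower and Nlrp12 higher in both 129 libraries than in both B6 libraries, Casp4 overlaps, and Nnt, Entpd4 and Crb1 stay under 1 CPM.

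Nnt and Entpd4 were almost without counted reads in both strains. The 2 rows of Nnt lie on the same stretch of the same strand, chr13:119335448-119408997 for ENSMUSG00000025453 and chr13:119335528-119408952 for ENSMUSG00000116207 (GRCm38, GENCODE M21). All 3339 exon bases of the second identifier are also exon bases of the first, and of the 2521 coding bases of the first only 16 lie outside the second. Entpd4 (ENSMUSG00000095463, chr14:69337174-69367270) has a copy, Entpd4b (ENSMUSG00000022066, chr14:69555424-69585520), that starts 218250 bases away. Their longest coding transcripts, of 3589 bases each, have 0 mismatches. The following windows are one read length long (76 bases) and show what such a read would carry. The Nnt window starts at the start codon (capitals), lies on the minus strand at chr13:119404627-119404702, and belongs to both identifiers. The windows of Entpd4 at chr14:69361639-69361714 and of Entpd4b at chr14:69579889-69579964, both on the plus strand at the start of the longest coding exon of their main transcript, are the same letter for letter.
Nnt: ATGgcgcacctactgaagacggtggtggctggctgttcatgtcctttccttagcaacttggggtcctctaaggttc
Entpd4: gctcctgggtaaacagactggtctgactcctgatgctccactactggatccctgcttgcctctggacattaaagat
Entpd4b: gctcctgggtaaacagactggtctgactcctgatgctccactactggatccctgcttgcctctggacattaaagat

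The first Nnt identifier had 3 and 11 reads in the 129 libraries, against 5 and 5 reads in the B6 libraries. The second had 0 reads in all 4. Summed, Nnt stood at 0.333 ± 0.266 CPM in 129 and 0.224 ± 0.0330 CPM in B6 (SD, n = 2 each), and the strains overlapped. The ratio of 129 to B6 was 1.51, with an exact 95% counting interval of 0.624 to 3.80, so these counts show no difference beyond counting error. Of the read-length windows in the transcripts of the first identifier, 46.4% occur in the second, and all windows of the second occur in the first. Entpd4 had 0 and 2 reads in 129, against 0 and 0 reads in B6, and Entpd4b had 0 reads in every library. Of the 8283 windows of Entpd4, 100% occur in transcripts of another gene, Entpd4b among them. Both strains were at or under the floor of 3 reads, and no fold is given. HTSeq, which the submitters' processing notes name, by default leaves a read uncounted where it falls on more than 1 gene or aligns to more than 1 place. The sources used here do not give the setting, and the part of these overlaps in the low counts was not tested. With that part unknown, counts this low do not tell whether either gene is transcribed.

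**Figure D2:**
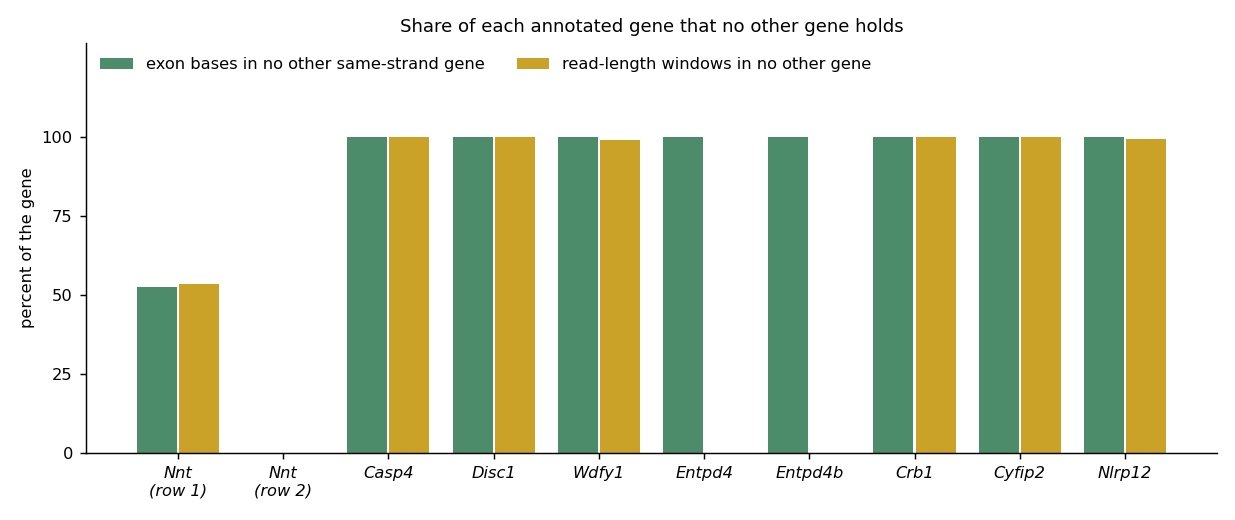
Percent of the exon bases of each annotated gene that lie in no other gene of the same strand (green) and percent of its read-length windows found in no other gene's transcripts (yellow), for the 9 deposited rows and Entpd4b. Nnt row 1 is ENSMUSG00000025453 (52.6% and 53.6%) and row 2 is ENSMUSG00000116207 (0 for both). Entpd4 and Entpd4b keep all their exon bases but no window, and the other 6 genes keep at least 99.1% of both.

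Mitochondrial NADPH and peroxide defence, the system that Nnt serves, was expressed in both strains. Of 20 listed genes all were tested, and edgeR called 0, while 6 had an unadjusted p under 0.05, DESeq2 called 2, both higher in 129, and limma-voom called 0. The list's median log2 fold change was 0.39, against 0.015 over all genes. Idh2, the isocitrate dehydrogenase that also makes NADPH in mitochondria, had 33.8 and 13.9 CPM in 129, against 9.67 and 4.01 CPM in B6. Its log2 fold change of 1.79 (SE 0.59) did not pass in edgeR (adjusted p = 0.11) and passed in DESeq2 (adjusted p = 0.022). The nucleotidase list around Entpd4 had 16 tested genes and a median of 0.42. DESeq2 called 5 of them, against 15.3% of all genes tested, and edgeR called 1, against 2.86%. The edgeR call was Enpp2, which encodes the secreted lysophospholipase autotaxin, with 22.3 and 20.9 CPM in 129, against 2.41 and 2.37 CPM in B6 (log2 fold change 3.17, SE 0.40, edgeR adjusted p = 0.030).

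Crb1 (ENSMUSG00000063681, chr1:139197056-139377100, minus strand) was at the limit of detection. It had 0 and 3 reads in 129, against 4 and 0 reads in B6, although none of its read-length windows occurs in another gene's transcripts. The ratio of 129 to B6 was 0.809 with an exact 95% counting interval of 0.119 to 4.78. A count of 0 in one library allows up to 0.142 to 0.145 CPM in 129 and 0.120 to 0.148 CPM in B6, counting error only. Its paralogue Crb2 had 1.35 and 0.568 CPM in 129, against 1.85 and 1.04 CPM in B6, and its log2 fold change of -0.62 (SE 0.62) did not pass. Of 19 tested genes of the Crumbs and Par polarity complexes 1 rose by edgeR, with a list median of -0.16. DESeq2 called 6, of which 2 were higher and 4 lower in 129, and limma-voom called 0. Over all genes tested, edgeR called 2.86%, DESeq2 15.3% and limma-voom 1.54%. The gene that edgeR called was Dlg5, a scaffold protein of cell polarity, with 132 and 122 CPM in 129, against 55.3 and 34.3 CPM in B6 (log2 fold change 1.50, SE 0.27, edgeR adjusted p = 0.046, limma-voom adjusted p = 0.054).

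Casp4 and Disc1 are the genes whose reported alleles belong to strain 129. Casp4 (ENSMUSG00000033538) lies at chr9:5308828-5336783 on the plus strand, and Disc1 (ENSMUSG00000043051) at chr8:125054195-125261858 on the plus strand. The exons the alleles touch are shown as the reference, which was built from C57BL/6J, has them. Exon 7 of Casp4 (chr9:5328433-5328542), the exon reported to be skipped in 129, holds 110 coding bases, not a multiple of 3. Exon 6 of Disc1 (chr8:125135274-125135509), which is reported to hold the deletion of 129, has 236 coding bases. The exon is in capitals, with 15 bases of the neighbouring exons on each side in lower case, as the spliced transcript joins them.
Casp4 exon 7: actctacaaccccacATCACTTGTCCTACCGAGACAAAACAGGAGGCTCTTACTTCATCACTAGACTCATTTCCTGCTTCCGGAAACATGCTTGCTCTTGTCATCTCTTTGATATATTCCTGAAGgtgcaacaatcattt
Disc1 exon 6: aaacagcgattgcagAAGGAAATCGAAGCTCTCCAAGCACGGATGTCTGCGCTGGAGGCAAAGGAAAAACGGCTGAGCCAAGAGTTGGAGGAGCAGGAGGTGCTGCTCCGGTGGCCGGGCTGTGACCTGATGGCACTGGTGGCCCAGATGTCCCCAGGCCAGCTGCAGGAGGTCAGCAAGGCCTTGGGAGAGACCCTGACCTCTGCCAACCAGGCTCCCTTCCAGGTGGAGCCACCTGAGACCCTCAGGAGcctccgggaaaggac

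Casp4 had 488 and 138 reads in 129, against 121 and 214 reads in B6, which is 23.6 and 6.54 CPM in 129 and 4.86 and 10.6 CPM in B6. The 129 libraries stood further apart (a ratio of 3.60 between them) than the strain means, and the strains overlapped. The log2 fold change of 0.98 (SE 0.68) did not pass (edgeR adjusted p = 0.39). Without 129 replicate 1 it was -0.23 (SE 0.65), and without 129 replicate 2 it was 1.62 (SE 0.56). No other gene's exon or transcript shares bases or windows with Casp4. Reads from a transcript without exon 7 would still be counted from its other exons.

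On chromosome 9 the nearest tested neighbours of Casp4 are its relatives Casp1 and Casp12. Casp1, the caspase that cleaves pro-interleukin-1β, starts 10.3 kb before Casp4, and Casp12 starts 36.6 kb after it. Of the 6 tested neighbours of Casp4, 3 had a positive and 3 a negative log2 fold change, with a median of -0.23. Only 1 of them, Casp1, was called by edgeR. Casp1 had 22.0 and 8.48 CPM in 129, against 0.161 and 0.791 CPM in B6, and rose in 129 (edgeR adjusted p = 0.039, log2 fold change 5.07, SE 0.83). The call was lost in limma-voom (adjusted p = 0.063) and, in edgeR, without 129 replicate 1, B6 replicate 1 or B6 replicate 2 (adjusted p = 0.10, 0.17 and 0.089). Casp12 had 26.5 and 10.5 CPM in 129, against 3.25 and 3.36 CPM in B6. Its log2 fold change of 2.48 (SE 0.56) did not pass in edgeR (adjusted p = 0.057) and passed in DESeq2 (adjusted p = 1.6e-04). For both relatives the 129 libraries lay above both B6 libraries, as was the case for 31% of all genes tested. In 129, replicate 1 was 2.59 times replicate 2 for Casp1 and 2.52 times for Casp12. Whether Casp4 differs from Casp1 or Casp12 in its strain difference was not tested.

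Of 29 tested genes of inflammatory caspases, gasdermins and the inflammasome, 4 rose and 1 fell in 129 by edgeR, and 24 did not pass. DESeq2 called 11 higher and 2 lower, limma-voom called 2, and the list median was 0.76. Over all genes tested, edgeR called 2.86%, DESeq2 15.3% and limma-voom 1.54%, and the median was 0.015. Of the genes that edgeR called, Nlrx1 also passed in limma-voom (adjusted p = 0.045), and the 4 that rose did not. The other limma-voom call was Nlrp1b (adjusted p = 0.045), with 2.22 and 0.853 CPM in 129, against 0 and 0 CPM in B6. It did not pass in edgeR (adjusted p = 0.060). Il1rn, the interleukin-1 receptor antagonist, had 235 and 74.9 CPM in 129, against 0.602 and 1.09 CPM in B6 (log2 fold change 7.54, SE 0.75, edgeR adjusted p = 0.029). Naip2, a sensor of the inner rod protein of bacterial secretion systems, had 30.1 and 10.6 CPM in 129, against 0.562 and 0.148 CPM in B6 (log2 fold change 5.74, SE 0.85). Nlrx1, a mitochondrial Nod-like receptor, had 1.59 and 1.04 CPM in 129, against 12.2 and 18.0 CPM in B6, and fell (log2 fold change -3.51, SE 0.51). Gsdmd, the pore protein that caspase-11 cleaves, had 53.4 and 40.5 CPM in 129, against 19.7 and 25.8 CPM in B6, and passed in DESeq2 (adjusted p = 0.015) but not in edgeR (log2 fold change 1.05, SE 0.29, adjusted p = 0.081).

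Markers of other cells differed between the libraries too. The 15 fibroblast markers summed to 3042 and 1127 CPM in 129, against 4254 and 2608 CPM in B6. They went both ways: Pdgfra rose and Dpt fell by edgeR (log2 fold changes 1.88, SE 0.33, and -2.13, SE 0.39), and DESeq2 called 6 higher and 7 lower. The 12 Sertoli cell markers summed to 287 and 151 CPM in 129, against 48.2 and 34.5 CPM in B6. Of these edgeR called 2 higher and 0 lower, and DESeq2 3 higher and 1 lower. Over all genes tested edgeR called 2.86% and DESeq2 15.3%. Most of the 129 sums came from the genes that edgeR called, Clu and Rhox5. Clu had 193 and 90.4 CPM in 129, against 3.77 and 10.1 CPM in B6. Rhox5 had 64.4 and 19.4 CPM in 129, against 0.241 and 0.791 CPM in B6. Fshr, Amh, Cldn11, Inha, Gata1 and Rhox8 stayed under 1 CPM in every library. Inhbb went the other way, with 2.61 and 2.51 CPM in 129, against 27.1 and 9.84 CPM in B6. Within 129, the fibroblast and Sertoli sums were higher in replicate 1, as were Casp4, Casp1 and Casp12. Not every marker was: Wt1, a Sertoli marker, had 12.7 and 26.1 CPM in 129. Within B6 both sums were also higher in replicate 1. There Casp4 (4.86 and 10.6 CPM) and Casp1 (0.161 and 0.791 CPM) were lower in replicate 1, and Casp12 had 3.25 and 3.36 CPM. The part of such cells in these values was not tested. The 19 markers of macrophages and neutrophils summed to only 25.5 and 13.2 CPM in 129, against 33.1 and 28.6 CPM in B6. Of these 6 could be tested, with 0 calls by edgeR, DESeq2 and limma-voom and 0 at an unadjusted p under 0.05. Most of the sum came from Lyz2, with 7.87 and 3.32 CPM in 129, against 9.71 and 16.8 CPM in B6, and Cd68, with 9.41 and 4.41 CPM in 129, against 15.6 and 2.87 CPM in B6. S100a9 was at 0 in every library, and Ptprc, C1qa and Tyrobp stayed under 1 CPM. Csf1r, Adgre1, Mrc1, Fcer1g, Itgam, S100a8 and Mpo were above 1 CPM in at least 1 library. Among these Csf1r reached the highest value, with 3.19 and 0.947 CPM in 129, against 0.441 and 1.04 CPM in B6. Its log2 fold change of 1.52 (SE 0.77) did not pass. The 15 germ cell markers summed to 3214 and 4190 CPM in 129, against 4542 and 4774 CPM in B6. These went both ways too: by edgeR 1 rose, Etv5 (log2 fold change 1.64, SE 0.22), and 1 fell, Uchl1 (303 and 384 CPM in 129, against 824 and 755 CPM in B6), and DESeq2 called 2 higher and 5 lower. In such bulk libraries, fewer cells of a type and less RNA per cell cannot be told apart.

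Disc1 was low and stood lower in both 129 libraries. It had 11 and 12 reads in 129, against 44 and 30 reads in B6, which is 0.531 and 0.568 CPM in 129 and 1.77 and 1.48 CPM in B6. The strains did not overlap, as was the case in this direction for 29.2% of all genes tested. The log2 fold change of -1.56 (SE 0.54) did not pass over all genes (edgeR adjusted p = 0.12, DESeq2 adjusted p = 0.28). It stayed between -1.72 and -1.43 as each library was left out in turn. The counts rest on few reads. The genome build named in the submitters' processing notes, mm10, is that of a C57BL/6J mouse, and the part of mismatches of 129 reads to it was not tested.

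The genes beside Disc1 on chromosome 8 mostly had lower values in 129 as well. Of 6 neighbours, 5 had a negative log2 fold change, from -1.49 to -0.24, and edgeR called 0. This was not particular to Disc1: 5 of 6 were negative beside Cyfip2, and 4 of 6 beside each of Nnt, Wdfy1 and Crb1. Tsnax, whose protein joins translin in an RNA-degrading complex and whose gene starts 41.2 kb before Disc1, had 120 and 130.2 CPM in 129, against 213 and 176 CPM in B6 (log2 fold change -0.64, SE 0.19, edgeR adjusted p = 0.094). Over the chromosome's 840 other tested genes the median was 0.090, and relative to it Disc1 stood at -1.65. Among 29 tested partners of the DISC1 protein 1 rose and 1 fell by edgeR, with a list median of 0.16, while DESeq2 called 5 and limma-voom 1. Over all genes tested, edgeR called 2.86%, DESeq2 15.3% and limma-voom 1.54%. Atf5, a transcription factor of the stress response, had 121 and 74.3 CPM in 129, against 15.7 and 16.2 CPM in B6 (log2 fold change 2.62, SE 0.30, edgeR adjusted p = 0.029). Fez1, an adaptor of kinesin transport, had 0.386 and 0.332 CPM in 129, against 5.06 and 3.02 CPM in B6 (log2 fold change -3.49, SE 0.65, edgeR adjusted p = 0.048), a call that limma-voom did not make (adjusted p = 0.061).

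**Figure D3:**
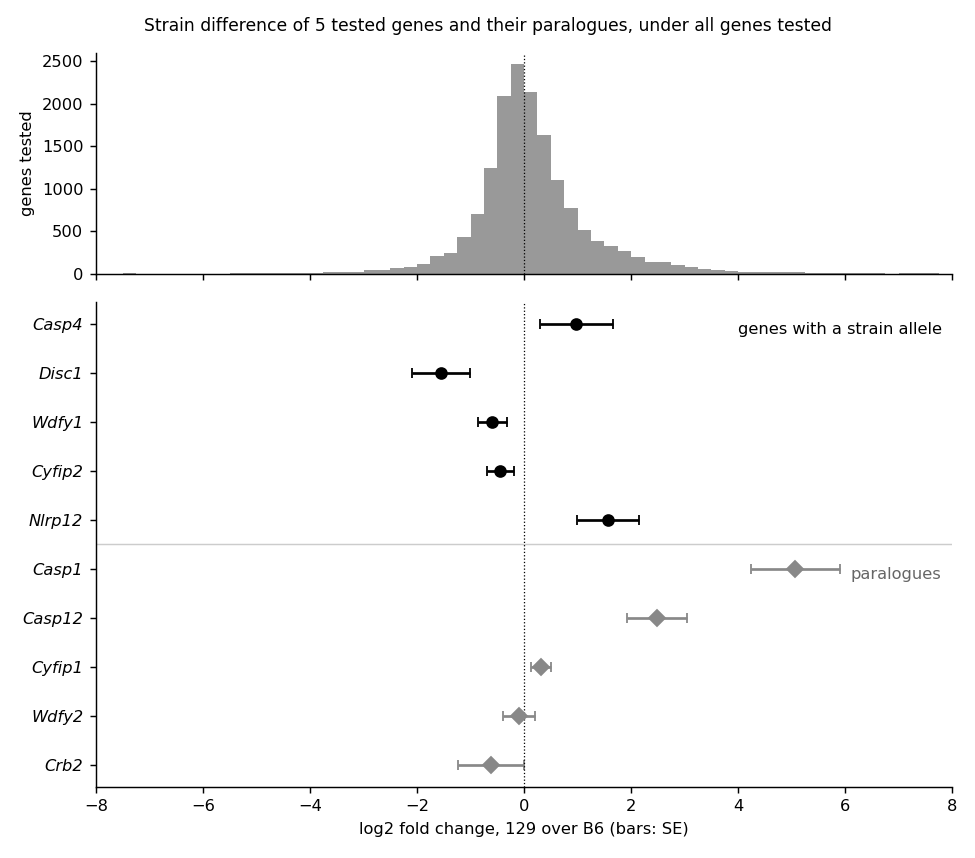
Bottom, log2 fold change of 129 over B6 with its SE for the 5 tested genes with a strain allele (black circles) and 5 paralogues (grey diamonds); top, the number of genes tested per bin of the same axis, where values beyond 8 in either direction are not drawn. Disc1 at -1.56 and Nlrp12 at 1.57 lie farthest from 0 among the 5, and Casp1 at 5.07 among the paralogues.

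Wdfy1 and Cyfip2 were the best counted of the 8 genes, and both stood somewhat lower in 129. Wdfy1 (ENSMUSG00000073643, chr1:79702262-79776143, minus strand) had 1029 and 765 reads in 129, against 1868 and 1099 reads in B6, which is 49.7 and 36.2 CPM in 129 and 75.0 and 54.4 CPM in B6. The strains did not overlap, as was the case in this direction for 29.2% of all genes tested. The gap between the strains was smaller than the gap within either strain. The log2 fold change was -0.59 (SE 0.27, edgeR adjusted p = 0.21), a level in 129 of 0.664 times that in B6. It ranged from -0.85 to -0.34 as each library was left out. Mrpl44 on the opposite strand shares 1.94% of the exon bases of Wdfy1, and whether the counting used strand is not stated in the sources used here. The paralogue Wdfy2 had 34.7 and 23.6 CPM in 129, against 34.2 and 28.0 CPM in B6, and overlapped between strains (log2 fold change -0.096, SE 0.31).

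Around Wdfy1, 1 of 6 neighbours passed the test. Kcne4, a regulatory subunit of potassium channels, had 1.74 and 0.426 CPM in 129, against 31.9 and 34.7 CPM in B6, and fell (log2 fold change -4.94, SE 0.55, edgeR adjusted p = 0.029). Scg2, which encodes a secretory granule protein and starts 268 kb before Wdfy1, had 3.76 and 1.14 CPM in 129, against 0.120 and 0 CPM in B6. It passed in DESeq2 (adjusted p = 0.0034) but not in edgeR (log2 fold change 5.09, SE 1.15, adjusted p = 0.053). The nearest neighbours on either side, Ap1s3 and Mrpl44, did not pass, with log2 fold changes of -0.84 for Ap1s3 (SE 0.68) and -0.24 for Mrpl44 (SE 0.24). Of 20 FYVE-domain, WDFY and endosomal phosphoinositide genes tested, edgeR called 0, 5 had an unadjusted p under 0.05, DESeq2 called 2 and limma-voom 0, and the median was -0.15. The Toll-like receptor adaptor gene Ticam1, whose product WDFY1 is reported to bind, had 14.6 and 8.72 CPM in 129, against 7.83 and 4.50 CPM in B6, and did not pass (log2 fold change 0.90, SE 0.47).

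Cyfip2 (ENSMUSG00000020340, chr11:46193850-46312859, minus strand) had 657 and 777 reads in 129, against 1062 and 1024 reads in B6, which is 31.7 and 36.8 CPM in 129 and 42.6 and 50.6 CPM in B6. The strains did not overlap, as was the case in this direction for 29.2% of all genes tested. The log2 fold change of -0.44 (SE 0.25) did not pass (edgeR adjusted p = 0.29), and it ranged from -0.57 to -0.34 as each library was left out. Its paralogue Cyfip1, which takes the same place in the WAVE complex, had 152 and 139 CPM in 129, against 128 and 107 CPM in B6, with a log2 fold change of 0.31 (SE 0.19) that did not pass either. Per kilobase of exon, Cyfip1 was the higher of the pair in every library. The opposite-strand gene Nipa2 shares 11.0% of the exon bases of Cyfip1. In the list of the WAVE complex, Rac1 and the Arp2/3 complex all 25 genes were tested, edgeR and limma-voom called 0, DESeq2 called 1, 3 had an unadjusted p under 0.05, and the median was -0.11. Of the 6 neighbours of Cyfip2 edgeR called 0, 5 had a negative log2 fold change, and their median was -0.36.

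Nlrp12 (ENSMUSG00000078817, chr7:3218784-3249740, minus strand) was low and stood higher in both 129 libraries. It had 47 and 97 reads in 129, against 27 and 25 reads in B6, which is 2.27 and 4.60 CPM in 129 and 1.08 and 1.24 CPM in B6. The strains did not overlap, as was the case in this direction for 31% of all genes tested. The log2 fold change of 1.57 (SE 0.57) did not pass over all genes (edgeR adjusted p = 0.13, DESeq2 adjusted p = 0.15). It was 0.97 without 129 replicate 2 and 1.99 without 129 replicate 1. Unlike Casp4, Nlrp12 was higher in 129 replicate 2 than in replicate 1. The sum of the macrophage and neutrophil markers, given above, was lower in 129 replicate 2, though not every marker was. The part of such cells in the reads of Nlrp12 was not tested. Only 0.428% of its read-length windows occur in another gene's transcripts, those of 5 microRNA genes.

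Near the start of chromosome 7 only 4 tested neighbours of Nlrp12 were found. Of these 3 had a positive log2 fold change and edgeR called 0. Cacng7, which encodes an auxiliary subunit of glutamate receptors, had 67.9 and 76.8 CPM in 129, against 37.0 and 53.1 CPM in B6, and did not pass (log2 fold change 0.69, SE 0.25). Over the chromosome's 1218 other tested genes the median was -0.054.

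**Figure D4:**
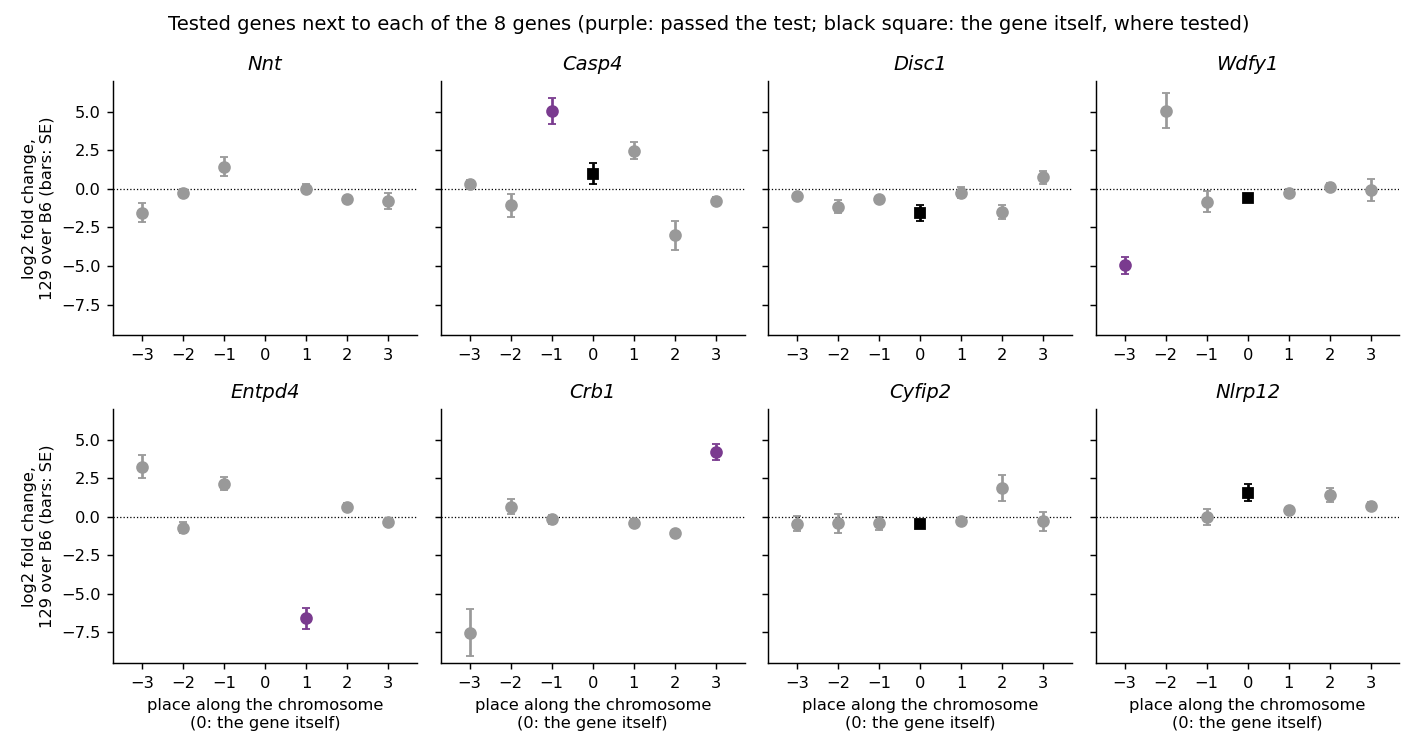
Log2 fold change of 129 over B6 with its SE (vertical axis) for the tested genes nearest to each of the 8 genes, 3 on each side where present, in their order along the chromosome (horizontal axis). Purple marks the 4 neighbours that passed the test, Casp1, Kcne4 and Loxl2 among them, and black squares the 5 tested genes themselves. Around Nnt, Disc1, Wdfy1, Crb1 and Cyfip2 most values lie under 0, and around Nlrp12 most lie above it.

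Over all 8 genes, 4 of 46 neighbours passed (8.7%), against 2.86% of all genes tested, and this difference was not tested. Besides Casp1 and Kcne4 these included Loxl2, which starts 272 kb after Entpd4. Loxl2, a collagen cross-linking enzyme, had 1.64 and 1.52 CPM in 129, against 229 and 73.4 CPM in B6 (log2 fold change -6.58, SE 0.68), and did not pass in limma-voom (adjusted p = 0.062). The 6 neighbours of Nnt had 0 calls by edgeR, with log2 fold changes from -1.54 to 1.44. No call named here held in edgeR without B6 replicate 1, where 0 of all genes passed and 3193 had an unadjusted p under 0.05, and 1 of all genes passed without B6 replicate 2.

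**Figure D5:**
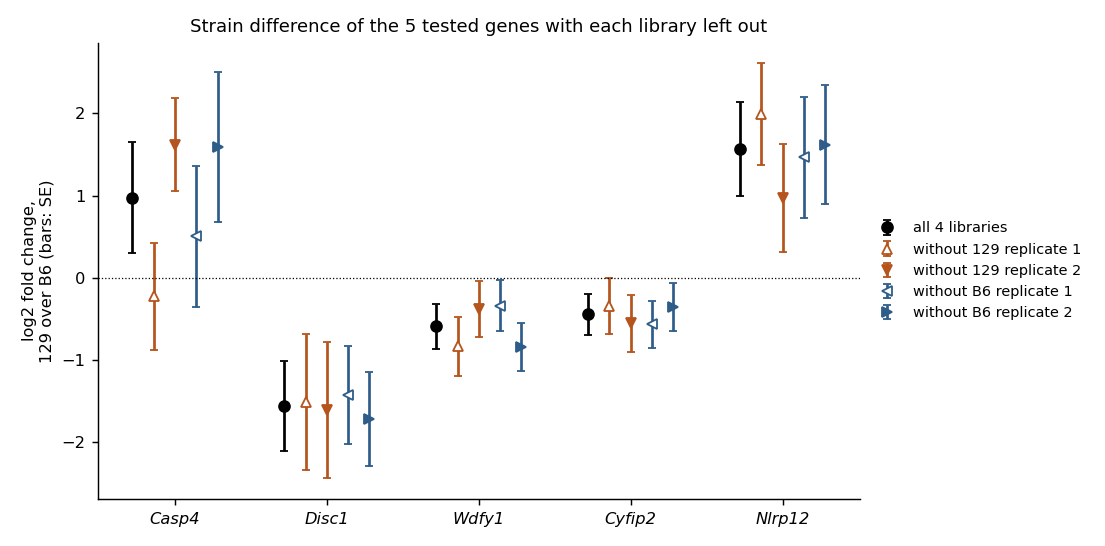
Log2 fold change of 129 over B6 with its SE for the 5 tested genes, with all 4 libraries (black circles) and with each library left out in turn (triangles; orange for a 129 library and blue for a B6 library left out). Disc1, Wdfy1 and Cyfip2 stay under 0 and Nlrp12 above 0 throughout, while Casp4 runs from -0.23 to 1.62.

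Per kilobase of annotated exon, the order of the genes by level was nearly the same in both strains. In 129, Wdfy1 led with 6.62 ± 1.46 CPM per kb, ahead of Cyfip2 with 4.82 ± 0.508 and Casp4 with 4.06 ± 3.24 CPM per kb (SD, n = 2 each), and Casp4 overlapped with both. In B6, the levels were 9.97 ± 2.25 CPM per kb for Wdfy1, 6.57 ± 0.799 for Cyfip2 and 2.08 ± 1.09 for Casp4, and no 2 of them overlapped. Nlrp12 and Disc1 changed places: Nlrp12 had 0.455 ± 0.218 CPM per kb in 129 and 0.154 ± 0.0143 in B6, whereas Disc1 had 0.145 ± 0.00698 CPM per kb in 129 and 0.427 ± 0.0524 in B6. In each strain the libraries of these genes lay apart. Nnt and Entpd4 were left out of this order, since the part of uncounted reads in their low counts is unknown, and Crb1 came last.

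For the 2 genes with the largest strain differences, the tested genes with the nearest profile over the 4 libraries were sought as the smallest root mean square distance of log2(CPM + 0.5), each centred on its mean. For Nlrp12 these were Gm13404 (0.041) and Best1 (0.047), with 104 genes within 0.25. For Disc1, Zfp959 was among the nearest (0.025), with 1231 genes within 0.25. At the low CPM of Disc1 the added 0.5 makes its strain difference smaller in this measure. The log2 fold change was -1.08 (SE 0.37) for Zfp959 and -1.56 (SE 0.54) for Disc1. A profile over 4 libraries is thus shared by many genes.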

How the data were processed

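The deposited table holds raw counts of reads per gene for 4 libraries, 1 column each. The build mm10 and the tools HTSeq 0.13.5, HISAT2 2.2.1, DESeq2 1.30.1, cutadapt 3.4 and bcl2fastq 2.20 are named in the submitters' processing notes; their roles and settings are not given in the sources used. Per the labels' protocols, stranded mRNA libraries were read as single reads of 76 bases.

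The 8 genes and the gene lists were chosen with earlier results of these data known. Rows sharing a listed symbol were summed. edgeR 4.0.16 in R 4.3.3 (filterByExpr, TMM, robust quasi-likelihood fit, strain as the only term) tested 16005 genes; DESeq2 1.42.0 and limma-voom (limma 3.58.1) were alternatives, all tested on simulated data. SEs were derived from the F statistic and the fold change. Counting intervals are exact binomial and cover counting error only. Other genes named are paralogues, called neighbours, up to 2 called genes per list and direction, and nearest profiles. Idh2, Gsdmd, Nlrp1b, Ticam1, Tsnax, Cacng7, Ap1s3, Mrpl44, Scg2 and Inhbb were added after their values were seen. So were Lyz2, Cd68, S100a9, Ptprc, C1qa, Tyrobp, Csf1r, Adgre1, Mrc1, Fcer1g, Itgam, S100a8 and Mpo. The same holds for Fshr, Amh, Cldn11, Inha, Gata1, Rhox8 and Wt1. A few genes that this rule names are not reported here. Positions, exons and transcript sequences come from GENCODE M21 (GRCm38), which holds 99.85% of the identifiers. Libraries of a strain were not duplicates (chi-square per gene 54.6 in 129 and 43.1 in B6).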

Additional observations from a re-analysis of the deposited data

How the results depend on the processing

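None of the 5 tested genes passed the threshold under any alternative run, and the lowest adjusted p was 0.12. Directions held for Disc1, Wdfy1, Cyfip2 and Nlrp12 in 15 alternatives each. Casp4 turned to -0.23 without 129 replicate 1 and ranged to 1.62 without 129 replicate 2; its other 14 alternatives kept the direction. The count of called genes was 457 and moved to 1021 with upper-quartile factors, 1055 with library totals, 260 with no filter, 301 with a stricter filter, 2455 with DESeq2 and 246 with limma-voom, and to between 0 (without B6 replicate 1) and 978 (without 129 replicate 2) as each library was left out, fits in which the lone library of a strain is taken to vary like the pair of the other. It was 25 without 129 replicate 1 and 1 without B6 replicate 2. With the replicate number as a block it was 844, and 0 of the 5 genes passed; the numbers are not said to pair the libraries, and same-numbered deviations correlated at -0.019 across genes. The legacy form of the edgeR test, added after seeing the data, called 406. The ratio of Nnt was 0.653 to 2.35 with a library left out; that of Crb1 could not be computed without 129 replicate 2 or B6 replicate 1. Summing Entpd4b with Entpd4 left 2 reads. Few reads limit Crb1 and Disc1; for Nnt and Entpd4 the parts of depth and of uncounted reads were not tested.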
